A study of Homo sapiens with 18 samples.

Results

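Nuclear-encoded messenger RNAs of respiratory complexes I and IV were followed through an RNA immunoprecipitation sequencing (RIP-seq) study of ADAR3 in glioblastoma cells. The set holds 48 of the 60666 Ensembl gene IDs in the deposited tables. It was chosen by gene family, by a rule that uses no measured value, though results of these data were known when the set was proposed. The rule lists the NDUFA, NDUFAB1, NDUFB, NDUFC, NDUFS and NDUFV genes under complex I and COX4I1 to COX8A under complex IV. This grouping follows gene names and was not checked subunit by subunit. U373-MG, an established human glioblastoma line cultured with G418, was transduced with a retrovirus carrying an empty vector with an antibiotic resistance gene (control), wild-type ADAR3 with a FLAG tag (ADAR3 WT), or the same protein mutated in its R-domain (R-mutant). All cells were crosslinked with UV light before lysis, and RNA was sequenced from the FLAG immunoprecipitate (IP) and from the input after ribosomal RNA depletion, although the molecule label reads polyA RNA. The 3 genotypes and 2 fractions give 6 groups of 3 libraries, and the labels do not state whether replicates are separate cultures, so p-values cover only the spread between these libraries. Both ADAR3 proteins were expressed from the transduced vector, not from the cells' own gene.

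Complex I (NADH dehydrogenase) passes electrons from NADH to ubiquinone, and complex IV (cytochrome c oxidase) passes them from cytochrome c to oxygen; both pump protons across the inner mitochondrial membrane. A few core subunits of each are made inside the mitochondrion from mitochondrial DNA, while the genes studied here lie in the nucleus. Their messenger RNAs, mostly short, are translated in the cytosol, and the proteins are then imported. ADAR3 is a brain-enriched relative of the RNA-editing ADAR enzymes with double-stranded RNA-binding domains and no known editing activity. Its R-domain, a stretch rich in arginine, can contact RNA that is single-stranded, and the study addressed what that domain does for the RNAs bound by ADAR3.

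The deposited data were 4 tables of the authors' own comparisons, which carry Ensembl IDs without gene symbols. None of the tables used here paired the IDs with symbols (0 of 48 matched), so single IDs were not assigned to a subunit, a role or a complex, and neither ADAR3 itself nor markers of the cell type were looked up. Of the 48 IDs, 44 were tested in each table. The other 4 (ENSG00000267855, ENSG00000139180, ENSG00000151366 and ENSG00000176340) had a mean listed at 0 in the 3 IP tables and were not listed in the input table. The 44 tested RNAs were abundant: in the input table their mean normalized count (the authors' average over the libraries of a comparison) ran from 34.9 to 9091, with a median of 2224, against a median of 315 over all 20411 tested genes. In the IP table of ADAR3 WT over control, 42 of the 44 had a mean of at least 50. The 2 below it were ENSG00000178127 at 25.4 and ENSG00000166136 at 37.0 mean normalized counts in the authors' deposited table. Values and depths of single libraries were not analysed here, so precision is given by the standard error (SE) deposited with each fold change.

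Most complex I and IV messenger RNAs had lower IP enrichment with ADAR3 WT than with the empty vector. IP enrichment was read as IP over input in one genotype relative to IP over input in another, on the log2 scale. A gene was called higher or lower when its log2 fold change, divided by its SE, gave a two-sided normal p that stayed under 0.05 after Benjamini-Hochberg adjustment over all genes tested. Lower enrichment was called for 22 of the 44, where 8.14% of all 21121 tested genes were called lower. Higher enrichment was called for 1 of the 44, where 5.99% of all tested genes were called higher. With the test statistic rescaled to its spread over all genes, 8 of the 44 were called lower, beside 1.48% of all tested genes. The median log2 fold change of the 44 was -0.87, a recovery 1.83-fold lower, and that of all tested genes was 0.01. A value below 0 was found for 41 of the 44, beside 49.3% of all tested genes. Values are relative to the other RNAs in the same libraries, so they do not measure an absolute amount of RNA in the IP. The control is described without a FLAG-tagged protein, so a value below 0 is a recovery below that of the control IP. It does not measure how much ADAR3 bound an RNA.

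**Figure D1:**
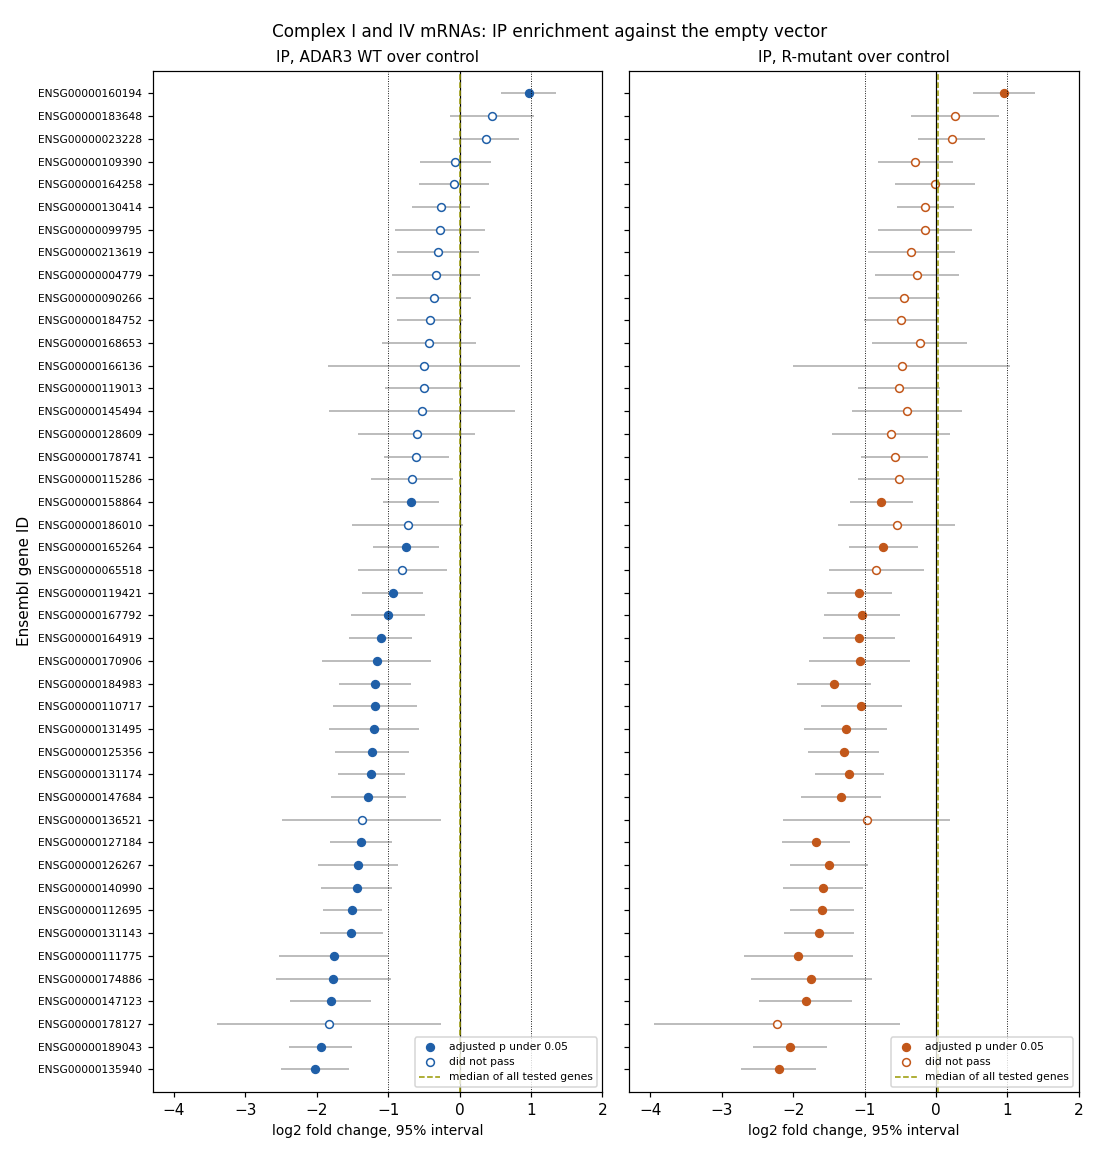
Points give the log2 fold change of IP enrichment (horizontal axis) for each of the 44 tested IDs (vertical axis, ordered by the left panel), with the 95% interval from the deposited SE as bars, for ADAR3 WT over control (left) and R-mutant over control (right). Filled points passed an adjusted p under 0.05, dotted lines mark a 2-fold difference, and 22 filled points lie left of 0 and 1 right of it in each panel.

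The called falls ran from -2.02 to -0.68 on the log2 scale with a median of -1.26, and 19 of the 22 were at least 2-fold, a size at which 4.34% of all tested genes were called lower. ENSG00000135940 fell the most among the 44, to a log2 fold change of -2.02 ± 0.24 (SE) in the authors' deposited table, which is 4.07-fold lower (normal test adjusted p 1.26e-14). ENSG00000189043 fell by 1.95 on the log2 scale with an SE of 0.22 in the authors' deposited table, or 3.86-fold (normal test adjusted p 1.31e-15). The 95% intervals of these 2 RNAs, from -2.50 to -1.55 and from -2.39 to -1.51, lay entirely beyond a 2-fold difference. The same held for ENSG00000147123, ENSG00000112695, ENSG00000131143 and ENSG00000111775, with upper limits of -1.24, -1.09, -1.08 and -1.01. The 2 RNAs were picked as the largest called falls, so their sizes may be overstated.

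A single RNA of the set rose, and its call did not hold with the rescaled statistic or when a 2-fold change was required. ENSG00000160194 had a log2 fold change of 0.97 ± 0.19 (SE) in the authors' deposited table, 1.96-fold higher with ADAR3 WT (normal test adjusted p 2.71e-05). Its mean normalized count of 2633 in the authors' deposited table was within the range of the RNAs that fell, from 201 to 5652. The other values above 0, 0.45 ± 0.30 for ENSG00000183648 and 0.37 ± 0.24 for ENSG00000023228 in the authors' deposited table, did not pass (normal test adjusted p 0.368 and 0.342).

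Of the 21 RNAs that did not pass, 19 had a value below 0, with a median of -0.43 over the 21. Some of these values were large but imprecise. ENSG00000178127, the least abundant of the tested members, had a log2 fold change of -1.83 ± 0.80 (SE) in the authors' deposited table (adjusted p of the normal test 0.117). ENSG00000136521 had one of -1.37 ± 0.57 in the authors' deposited table at a mean of 113 (normal test adjusted p 0.0882). RNAs near 0 were also present, so the set was not uniform: the standard deviation of the 44 values was 0.67, while their root mean square SE was 0.34. The spread was near that of other genes: at a mean of at least 50, it was 0.67 for members and 0.66 for all tested genes.

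Abundance did not order the members. Across the 44 RNAs, log2 fold change and mean normalized count had a Spearman correlation of -0.03, given as a description since all values come from the same libraries. Because the power to call a gene rises with its mean, tested genes were also split by mean normalized count into 5 equal groups. In the second highest group, with a median mean of 1040, 13 of 23 members were lower, beside 15.9% of all genes in that group. In the group above it, at a median mean of 3347, 7 of 12 members were lower, beside 14.9% of its genes. In the middle group 2 of 7 members were lower, beside 7.60% of its genes. In the second lowest group 0 of 2 were lower, beside 1.89%, and the lowest group held no members. The members' median log2 fold changes in the middle, second highest and highest groups were -0.72, -0.75 and -1.14, while those of all genes in the same groups were 0.03, -0.11 and -0.05. With the test run only over genes with a mean of at least 50, 24 of 42 members (57.1%) were lower, beside 13.4% of the 13617 genes tested.

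**Figure D2:**
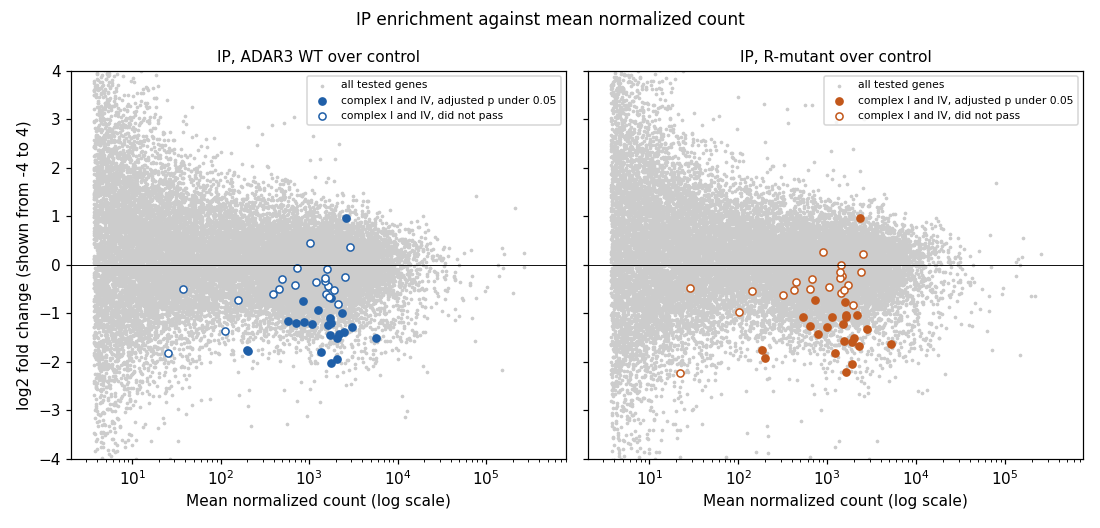
Each point is a gene, placed by its mean normalized count (horizontal axis, log scale) and its log2 fold change of IP enrichment (vertical axis, drawn from -4 to 4), for ADAR3 WT over control (left) and R-mutant over control (right). Grey points are all tested genes and coloured points the 44 complex I and IV RNAs, filled where the adjusted p was under 0.05, of which 41 of 44 lie below 0 in each panel.

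The R-mutant gave lower enrichment of most of the same set against the empty vector. This comparison uses the same control libraries as the one above, so its values stand beside the earlier ones and are not independent of them. Lower enrichment was called for 22 of the 44, where 7.95% of all 21120 tested genes were called lower, and higher enrichment for 1, where 5.38% of all genes were called higher. With the rescaled statistic 9 of the 44 were called lower, beside 1.30% of all tested genes. The median log2 fold change of the 44 was -0.90, or 1.87-fold lower, beside 0.03 for all tested genes. The called falls ran from -2.20 to -0.73 with a median of -1.38, and 20 of the 22 were at least 2-fold, a size at which 4.94% of all tested genes were called lower. In the lowest 10% of all tested genes by log2 fold change lay 19 of the 44 for the R-mutant and 20 of the 44 for ADAR3 WT.

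The values of the RNAs described above were as follows with the R-mutant. ENSG00000135940 had a log2 fold change of -2.20 ± 0.27 (SE) in the authors' deposited table, 4.60-fold lower than in control (normal test adjusted p 9.08e-14). ENSG00000189043 had one of -2.04 ± 0.26 in the authors' deposited table, 4.12-fold lower (normal test adjusted p 1.79e-12). ENSG00000160194 was the single RNA called higher, a call again lost with the rescaled statistic or at 2-fold, at 0.96 ± 0.22 in the authors' deposited table, or 1.94-fold (normal test adjusted p 0.000449). ENSG00000178127 had the lowest value of the set, -2.22 ± 0.88 in the authors' deposited table, and did not pass (normal test adjusted p 0.0734). ENSG00000136521 had a value of -0.97 ± 0.60 in the authors' deposited table (adjusted p of the normal test 0.320). ENSG00000183648 and ENSG00000023228 were above 0 in this comparison too, at 0.27 ± 0.31 and 0.22 ± 0.24 in the authors' deposited table, without passing (normal test adjusted p 0.660 and 0.638). In the second highest group by mean, 13 of 23 members were lower beside 15.4% of its genes, and in the highest group 7 of 12 beside 14.7%. The middle group had 2 of 7 lower beside 7.69%, and the second lowest 0 of 2 beside 1.54%. Over genes with a mean of at least 50, 22 of 42 members (52.4%) were lower, beside 13.2% of the 13515 genes tested.

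The R-mutant was also set directly against ADAR3 WT. No difference was called for any of the 44 (normal test, adjusted p under 0.05), and 0 of them had an unadjusted p under 0.05; over all 23385 tested genes, 0.00428% were called and 0.624% had an unadjusted p under 0.05. By the authors' adjusted p the number was 38 of 44, as given below. The median log2 fold change of the 44 was -0.05, beside -0.02 for all tested genes. For 37 of the 44 the 95% interval excluded a 2-fold difference in either direction, which held for 55.2% of all tested genes. For the other 7 a difference that large remained possible. The 55.2% is not matched for abundance: the 44 had a median mean of 1535, against 143 over all tested genes. The standard deviation of the 44 values was 0.14, smaller than their root mean square SE of 0.34. Against control it was 0.67 with an SE of the same size. Values of all tested genes with a mean of at least 50 also spread less than their SE, at 0.17 beside a median SE of 0.22. Few genes could pass the normal test here, so the absence of calls does not show that the mutation had no effect.

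The RNAs with the largest falls against control did not differ detectably between the ADAR3 forms. Relative to ADAR3 WT, the R-mutant had a log2 fold change of -0.19 ± 0.21 (SE) for ENSG00000135940 in the authors' deposited table, with a 95% interval from -0.59 to 0.21. It was -0.11 ± 0.24 for ENSG00000189043 in the authors' deposited table, with an interval from -0.58 to 0.36. For ENSG00000160194, the RNA that was higher with either protein, it was -0.02 ± 0.18 in the authors' deposited table, with an interval from -0.38 to 0.34. The lowest and highest values of the set, -0.41 ± 0.74 for ENSG00000178127 and 0.39 ± 0.45 for ENSG00000136521 in the authors' deposited table, were both smaller than their SE.

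In the authors' deposited table the adjusted p of a likelihood ratio test, which covers more terms than this fold change, was under 0.05 for 38 of the 44 members in R-mutant over ADAR3 WT, beside 51.1% of all tested genes. In 36 of these 38 the SE exceeded the size of the fold change, so this count says nothing on the size or direction of a difference between the proteins. The corresponding counts against control were 38 of 44 for ADAR3 WT, 37 of them with a value below 0, beside 43% of all tested genes (23.7% with a value below 0) in the authors' deposited table. For the R-mutant they were 40 of 44, 39 of them below 0, beside 40.8% of all tested genes (23% with a value below 0) in the authors' deposited table.

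**Figure D3:**
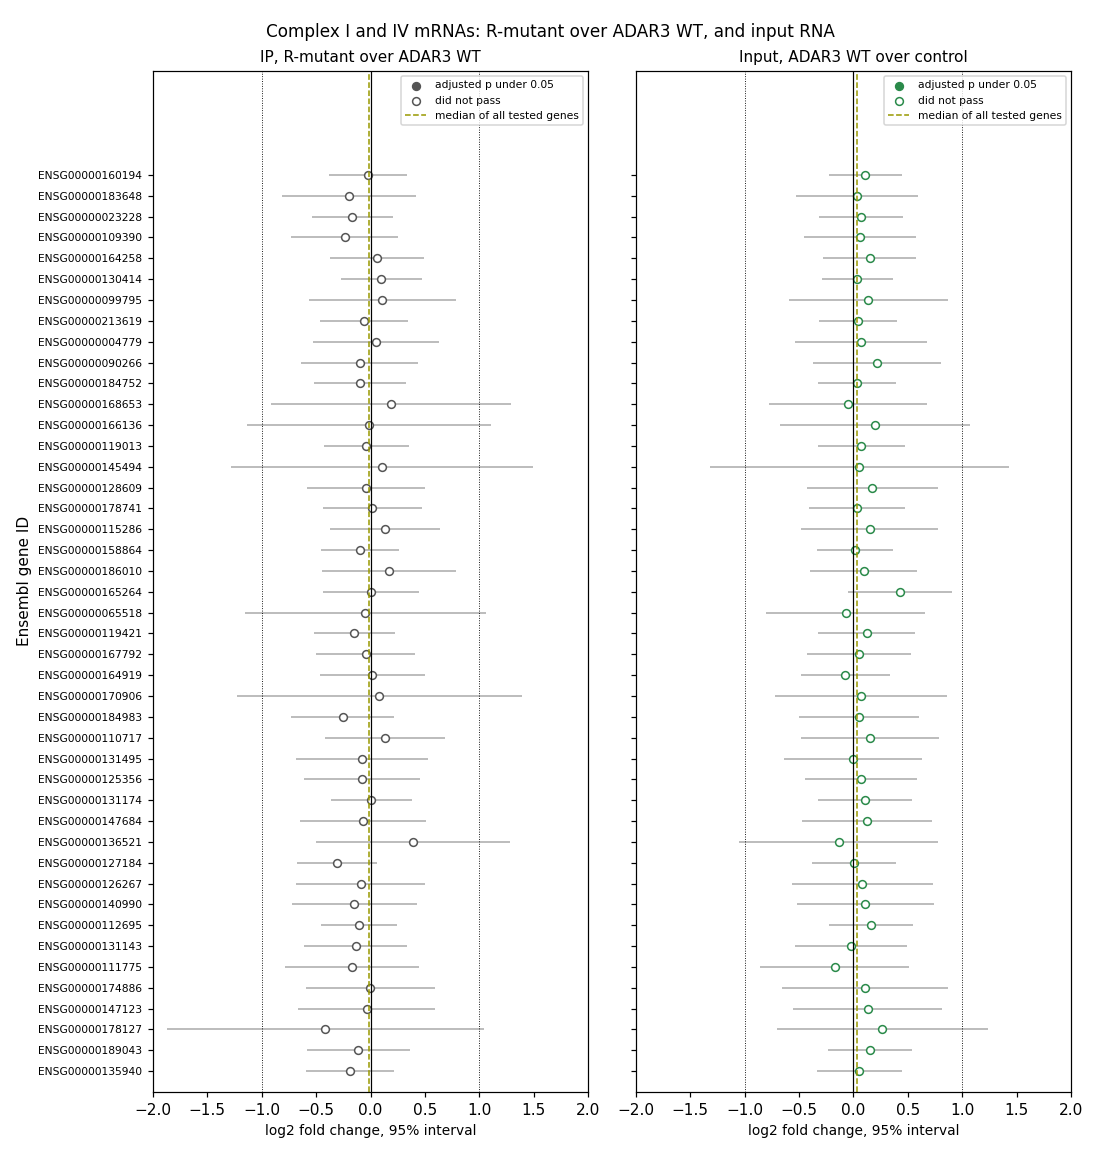
Log2 fold changes (horizontal axis) with 95% intervals for the 44 tested IDs (vertical axis, in the same order as in the plot against control) in IP enrichment of R-mutant over ADAR3 WT (left) and in input RNA of ADAR3 WT over control (right). All points are open because none passed an adjusted p under 0.05, and their values lie between -0.41 and 0.43.

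Input RNA shows whether ADAR3 WT altered the level of these messenger RNAs in the cells. None of the 44 was called between ADAR3 WT and control input by the normal test or by the authors' adjusted p, where 0.289% of all 20411 tested genes were called by either, and 0 of the 44 had an unadjusted p under 0.05, beside 2.92% of all tested genes. The median log2 fold change of the 44 was 0.07, beside 0.03 for all tested genes and 0.04 for those with a mean of at least 50. A value below 0 was found for 7 of the 44, beside 43.4% of all tested genes. The values of the 44 ran from -0.17 to 0.43, with a standard deviation of 0.10 and a root mean square SE of 0.31. In such bulk RNA a change in the number of cells of a kind and a change in RNA per cell cannot be told apart.

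The RNAs with the 2 largest called falls and the called rise had input values smaller than their SE. They were 0.05 ± 0.20 (SE) for ENSG00000135940, 0.15 ± 0.20 for ENSG00000189043 and 0.11 ± 0.17 for ENSG00000160194 in the authors' deposited table. ENSG00000178127, whose low IP values did not pass, had an input value of 0.27 ± 0.49 in the authors' deposited table. The highest input value of the set was 0.43 ± 0.25 for ENSG00000165264 in the authors' deposited table, whose 95% interval ran from -0.05 to 0.91, and the lowest was -0.17 ± 0.35 for ENSG00000111775. A 2-fold difference in either direction lay outside the 95% interval for 40 of the 44, beside 66.8% of all tested genes, a share not matched for abundance. The 4 RNAs for which it was not excluded were ENSG00000178127, ENSG00000136521, ENSG00000145494 and ENSG00000166136, listed after their values were seen. Input RNA of the R-mutant was not analysed here, so the R-mutant values of IP enrichment have no input comparison beside them.

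**Figure D4:**
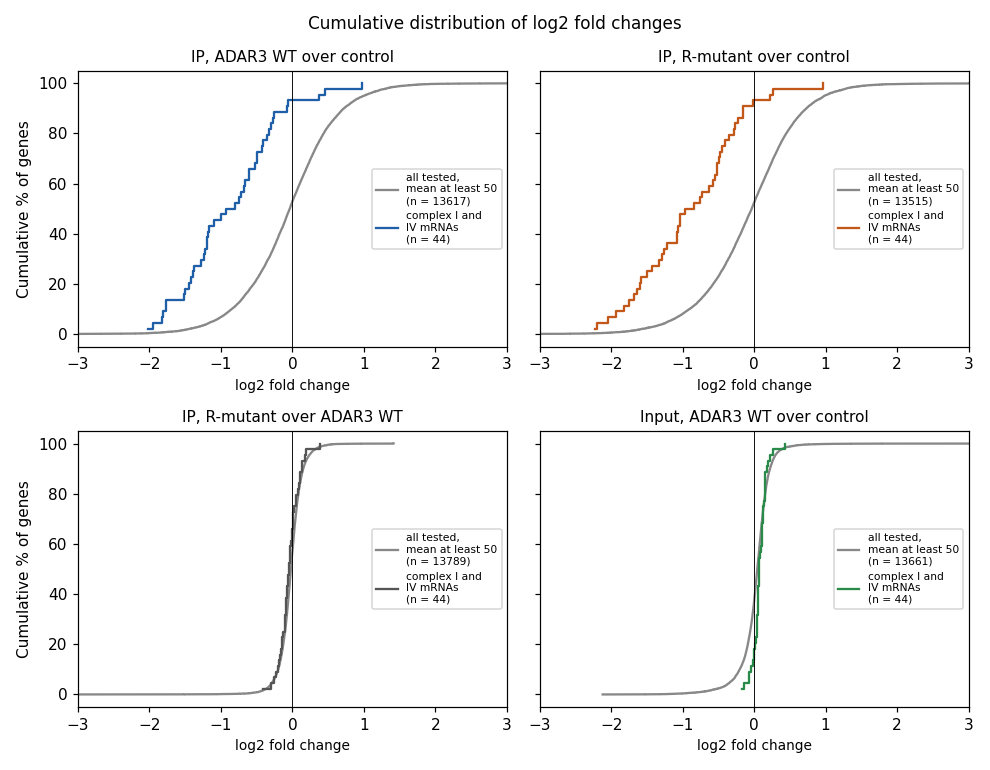
Cumulative percent of genes (vertical axis) by log2 fold change (horizontal axis, drawn from -3 to 3) in the 4 comparisons, for the 44 complex I and IV RNAs (coloured steps; dark grey for R-mutant over ADAR3 WT) and for all tested genes with a mean of at least 50 (light grey). The coloured curve lies left of the grey one in both comparisons against control, with medians of -0.87 and -0.90, and close to it in the other panels, with medians of -0.05 and 0.07.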

How the data were processed

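Per the submitters' processing notes, the authors used STAR 2.7.7a, featureCounts, DESeq2 and GRCh38; the sources used here do not give the annotation, the model formula or the DESeq2 version. Per the file headers, each of the 4 deposited tables gives a mean signal (mean of normalized counts), a log2 fold change with its SE on the log2 scale, a test statistic used here as a score, and deposited p-values, raw and adjusted. The statistic of the input table equals fold change over SE, and that of the IP tables is a likelihood ratio. The 6 per-library columns of the input table match no label and were not used.

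Genes with a deposited adjusted p were tested here (log2 fold change over SE, two-sided normal test, Benjamini-Hochberg at 0.05), and 95% intervals are 1.96 SE wide on each side. The reading of IP fold changes is not in the labels; among genes with an input mean below 10 their slope on the input fold change was -0.79 for ADAR3 WT against control, -0.35 for the R-mutant against control and 0.48 for the R-mutant against ADAR3 WT, the signs that input in the denominator gives. The members, lists and test were chosen with earlier results of these data known. The planned rule named the 5 highest and 5 lowest members of each comparison against control; lacking symbols, the text names fewer, and the planned lists of other respiratory genes and markers were not used. A check of the test on simulated data drew its errors from the deposited SEs, so it could not show whether those SEs are right. Python 3.11.15, numpy 2.4.6, pandas 2.3.3, scipy 1.17.1 and matplotlib 3.10.9 were used.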

Additional observations from a re-analysis of the deposited data

How the results depend on the processing

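No paired analysis was possible because the per-library columns match no label; for the same reason the planned fits without a replicate, with DESeq2 size factors, without a count filter or with a block were not run. By the authors' adjusted p, 38 members were called for ADAR3 WT against control, beside 43% of all tested genes. For the R-mutant the count was 40 against control, beside 40.8%, and 38 against ADAR3 WT, beside 51.1%. That test covers more terms than the fold change. With the statistic centred and divided by its robust spread over all genes, which a broad change widens, 8 members were called for ADAR3 WT and 9 for the R-mutant, all lower, beside 1.48% and 1.30% of all tested genes called lower. The other 6 settings were adjusted p under 0.01, at least 2-fold, a mean of at least 50, no filter, and both centrings. Their counts were 19 to 25 for ADAR3 WT and 20 to 23 for the R-mutant, against 23 each. Each count includes 1 higher member, except at 2-fold. The share of all tested genes called moved more, from 6.62% to 22.95% for ADAR3 WT and from 6.24% to 22.01% for the R-mutant. It was lowest without a filter and highest at a mean of at least 50. In the main test it was 14.14% and 13.32%. Under these 6 settings and the rescaled one no member was called between the R-mutant and ADAR3 WT, beside 0.00267% to 0.334% of all tested genes. Under all 8 none was called in input, beside 0.142% to 2.40% of all tested genes. With shares this low, the lack of calls tells little about the members in particular. ENSG00000135940 and ENSG00000189043 passed under all 8 settings in both comparisons against control; ENSG00000160194 did not pass at 2-fold or with the rescaled statistic in either. Centring moved no value by more than 0.044. Depth per library is unknown, and members with a mean under 50 had an SE of 0.69 to 0.88 against control.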

Other observations

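The mean normalized count of each gene in an IP table can be set beside its mean in the input table. The sources used here do not give the libraries behind each mean or the authors' scaling between tables, so the ratio is read only relative to other genes, and it carries no test. Over 13411 genes that reached a mean of 50 in both, the ratio of the mean in the table of ADAR3 WT over control to the input mean had a median of 0.850. The 42 complex I and IV RNAs among them had a median of 0.641, and 40 of the 42 lay below the median of all genes. The lowest 10% of genes by this ratio, at or below 0.680, held 27 of the 42. With the log2 fold change of the same comparison, the ratio had a Spearman correlation of 0.668 over all these genes and 0.665 over the members. It is therefore not separate evidence of lower enrichment. With the table of R-mutant over ADAR3 WT, the medians were 0.896 over 13420 genes and 0.619 over 42 members. Of the 42, 41 lay below the median of all genes. This ratio had a Spearman correlation with that table's log2 fold change of 0.185 over all these genes and 0.297 over the members. As the libraries behind the mean are not given, it is not taken as separate evidence either. ENSG00000160194 was the single member with a ratio above 1 in each IP table, at 1.13 for ADAR3 WT and 1.01 for the R-mutant against control and 1.43 for the R-mutant against ADAR3 WT. The ratios of ENSG00000189043 were 0.550, 0.504 and 0.534 in the same order.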
